A study of Homo sapiens with 12 samples.

Results

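The genes described are 5 secreted cytokines, IL1A, IL1B, IL6, IL11 and CSF3. They were chosen from the genes that the authors called differentially expressed between stimulated and unstimulated endothelial cells (ECs), so that their presence among the called genes is the basis of the choice and not a finding. They make up 5 of 95 called genes that carry a gene ontology (GO) annotation, and the 95 called genes are 0.508% of the 18704 annotated genes. RNA was sequenced in 4 groups of 3 samples each. NC was the negative control without stimulation, and NC-L-L had LPS for 16 h and lactate for 3 h. In siENO1 the glycolytic enzyme ENO1 was knocked down with siRNA, and siENO1-L-L combined the knockdown with the same stimulation. By their labels all samples were EA.HY926 cells, an immortal hybrid of an umbilical vein EC and a lung carcinoma cell. The study's legends for the GO and KEGG enrichment panels name HUVECs, which are primary ECs. Legends of some other experiments name EA.HY926. Which of them was sequenced could not be checked here.

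Each GO term in the table for NC-L-L against NC came with its size in annotated genes, a count of the called genes that belong to it and their symbols. It holds 0 columns of values per sample. The depth, the spread between replicates, the fold changes and the directions of the 5 cytokines are therefore unknown here, and no level is given for any of them. The labelled cell type could not be checked against expression levels for the same reason. Among the called genes, 0 of 15 endothelial markers, 0 of 10 epithelial markers, 0 of 10 leukocyte markers and 0 of 10 fibroblast and mural markers were found. The lists do not hold every gene of these cell types. LYVE1, ESM1 and ICAM1, known from ECs, and ITGAL and IKZF1, known from leukocytes, were called and are on none of the lists, and they were picked out after the called genes had been seen. Neither the counts nor these genes show which cell types were present.

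IL-1 alpha and IL-1 beta, the products of IL1A and IL1B, bind the same receptor and signal through MyD88 to NF-kappaB and the MAP kinases. IL-6 and IL-11 each bind a receptor chain of their own and then share the signalling chain gp130, which activates JAK kinases and STAT3. G-CSF, the product of CSF3, acts on a receptor related to gp130 and drives the formation of neutrophils. ECs that sense LPS through TLR4 are a known source of IL-6 and G-CSF.

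In GENCODE v29 on GRCh38, IL1A lies on the minus strand at chr2:112773915-112784590. IL1B lies on the same strand at chr2:112829751-112836903. The pair are neighbours, with 45160 bases and 0 annotated genes lying wholly between them. IL6 lies on the plus strand at chr7:22725884-22732002, IL11 on the minus strand at chr19:55364389-55370463 and CSF3 on the plus strand at chr17:40015361-40017813.

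Promoter sequence is shown because the 5 genes were called together, and it lets a reader compare the letters in front of them. RefSeq windows of GRCh38.p14, from 250 bases before to 50 bases after the start, were matched for 4 of the 5 genes, IL1A, IL1B, IL6 and IL11. The longest stretch before the start that lies in no GENCODE exon is printed for each gene, 5′ to 3′ on the strand of the gene, with matches to the searched motifs in capitals. For IL1A it is chr2:112784591-112784743 on the minus strand, where the capitals mark a TATA box match. For IL1B it is chr2:112836904-112837029 on the minus strand, where they mark a C/EBP match. For IL6 it is chr7:22726950-22727146 on the plus strand, with a C/EBP match followed by an NF-kappaB match. For IL11 it is chr19:55370464-55370713 on the minus strand, with an AP-1 match. All 250 bases before the RefSeq start of IL6 lie inside the GENCODE gene. They also overlap 2 other genes, AC073072.1 and STEAP1B.
IL1A: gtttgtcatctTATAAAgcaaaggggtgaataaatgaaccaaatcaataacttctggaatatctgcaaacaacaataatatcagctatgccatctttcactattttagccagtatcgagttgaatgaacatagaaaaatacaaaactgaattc
IL1B: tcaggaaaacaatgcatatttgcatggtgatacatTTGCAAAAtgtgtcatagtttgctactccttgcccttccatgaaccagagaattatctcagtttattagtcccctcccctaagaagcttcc
IL6: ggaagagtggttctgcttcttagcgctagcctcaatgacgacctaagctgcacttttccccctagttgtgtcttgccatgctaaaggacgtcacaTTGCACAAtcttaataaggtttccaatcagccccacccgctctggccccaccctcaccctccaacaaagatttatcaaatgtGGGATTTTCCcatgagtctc
IL11: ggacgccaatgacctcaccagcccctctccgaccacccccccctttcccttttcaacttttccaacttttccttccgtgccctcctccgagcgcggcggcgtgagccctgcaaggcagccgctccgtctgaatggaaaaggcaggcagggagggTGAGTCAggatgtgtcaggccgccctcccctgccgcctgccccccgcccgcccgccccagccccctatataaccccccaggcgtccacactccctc
A further AP-1 match of IL1A lies in the 30 bases next to its start, at chr2:112784494-112784523 on the minus strand, which GENCODE v29 counts as exon.
IL1A near start: acaaaaggcgaagaagacTGACTCAggctt

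The 6 motifs were searched on both strands of the whole window of 300 bases, and overlapping matches were counted. They were AP-1 (TGANTCA), C/EBP (TTGCNNAA), CRE (TGACGTCA), CK-1 (GAGATTCC), the TATA box (TATAAA) and the NF-kappaB consensus, known by its name. The NF-kappaB consensus was found in 1 of the 4 cytokine windows, that of IL6, from 73 to 64 bases before the start. It was also found in 5.91% of all 35116 windows, among which a gene can have several, whereas each cytokine was given the 1 window at its RefSeq gene start. AP-1 was found in IL1A and IL11, against 7.71% of all windows. The match of IL11 lies from 96 to 90 bases before the start, and IL1A has one from 12 to 6 bases before the start and another after it. C/EBP was found in IL1B and IL6, against 10.5% of all windows. The TATA box letters searched, TATAAA, were found in IL1A alone among the 4, at 239 to 234 bases before the start, against 11.5% of all windows. The printed stretch of IL11 holds tatataa near its start of transcription, which TATAAA does not match. The search therefore does not show that IL11 or the others lack a TATA box, nor that the IL1A match acts as one. CRE and CK-1 were found in 0 of the 4 windows, and in 1.85% and 0.869% of all windows. None of the 6 motifs was found in more than 2 of the 4 windows. No match in these windows overlapped that of another motif. In the 101 windows matched to other called genes, the NF-kappaB consensus was found in 19.8%, the TATA box in 22.8%, AP-1 in 9.90%, C/EBP in 6.93%, CRE in 1.98% and CK-1 in 0%. These windows cover 66 of the other 90 called genes (73.3%), under the 80% needed, so that a comparison with them is void and their shares stand as values only. A match describes letters and shows no binding, and a missing match says only that these letters are not in the window.

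The comparison of NC-L-L with NC asks which transcripts differ after LPS and lactate. Of its 1218 listed GO terms, 197 (16.2%) held at least 1 of the 5 cytokine genes. Biological processes made up 176 of them, out of 888 listed, whereas cellular components gave 12 out of 145 and molecular functions 9 out of 185. The 5 genes are 5.26% of the called genes and account for 274 of 2364 entries of a gene in a term (11.6%). No listed term had fewer than 5 annotated genes, so any smaller terms of a gene are not counted here. How many terms a gene holds is a property of its GO annotation and not of the samples, and no test was made of it.

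IL1B was held by 96 terms, the most of the 95 called genes, and IL6 by 84, the second most. IL1A was held by 51 terms, which placed it 12 among the called genes. CSF3 was held by 24 terms and IL11 by 19, close to the median of 18.5 terms over the other 90 called genes. IL1B and IL6 thus carry most of the terms, and IL11 and CSF3 appear in the table about as often as an ordinary called gene. The terms of IL1B had a median of 44 annotated genes, those of IL6 47, those of IL1A 75, those of CSF3 106 and those of IL11 151. The genes with fewer terms were thus listed under broader ones at the median.

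**Figure D1:**
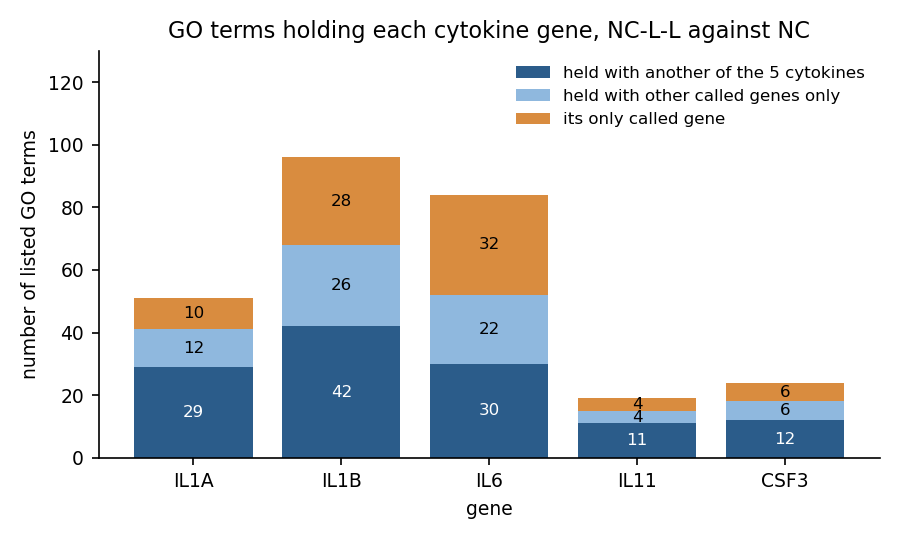
Number of listed GO terms (vertical axis) that hold each cytokine gene (horizontal axis) in the table for NC-L-L against NC. Each bar is split into terms that also hold another of the 5 cytokines, terms that hold other called genes only, and terms in which the gene is the only called gene. IL1B and IL6 have 96 and 84 terms, and IL11 has 19.

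Of the 197 terms, 150 held 1 of the 5 genes, 29 held 2, 10 held 3, 4 held 4 and 4 held all 5. Hence 47 terms (23.9%) were shared by at least 2 of the cytokines. Among the 47, 19 held no other called gene and 28 did. The shared terms had a median of 101 annotated genes and the terms with 1 cytokine a median of 35.5, so that the shared terms were the broader ones at the median. IL11 shared 57.9% of its terms with another of the 5, IL1A 56.9%, CSF3 50%, IL1B 43.8% and IL6 35.7%.

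Of the 4 terms with all 5 genes, 3 described what the proteins are or where they are found and 1 was a process. Cytokine activity held 8 called genes of 187 annotated, or 4.28%. Its other called genes were AREG, a ligand of the EGF receptor, LIF, a cytokine that signals through gp130, and IL32. Without the 5 cytokines the term would hold 3 of 182 genes, or 1.65%. Extracellular space held 28 of 1493 annotated genes and extracellular region 33 of 1816. Positive regulation of transcription by RNA polymerase II held 20 of 1149, and its other 15 called genes included the transcription factors FOS, FOSB, JUNB, EGR2, NR4A1, NFKB2 and RELB. That term thus placed the secreted proteins beside nuclear factors.

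A further 4 terms held 4 of the 5 genes. Cellular response to lipopolysaccharide held 13 called genes of 164 annotated, or 7.93%, and IL11 was the cytokine missing from it. Its other called genes were the chemokines CCL2, CXCL1, CXCL2, CXCL3 and CXCL8 and the regulators NFKBIZ, TNFAIP3, TNIP3 and ZC3H12A. Without the 4 cytokines 5.62% of its genes were called, so that most of the called genes in the term were not among the 5. Cytokine-mediated signaling pathway held 6 of 131 genes, with CCL2 and NFKBIZ beside IL1A, IL1B, IL6 and CSF3. Positive regulation of cell population proliferation held 7 of 478 genes, with AREG, ESM1 and LIF beside the 4 cytokines other than IL1A. Protein binding held 82 of 12516 genes, or 0.655%, a share near the 0.508% of all annotated genes. CSF3 was missing from it.

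Response to lipopolysaccharide includes the cellular response by its meaning, yet it had fewer annotated genes, 132 against 164. Genes of a term were thus not all counted under the term that includes it. Response to lipopolysaccharide held 5 called genes. They were FOS, IL1B, NR4A1, PTGS2 and SOD2, and only 1, IL1B, was also listed under the cellular response. IL1A, IL6 and CSF3 were thus listed under the cellular response and not under the response that includes it. The same was seen for cytokine production. Positive regulation of cytokine production held 1 called gene of 61, IL1A, and IL1A, IL1B and IL6 were all listed under production of single cytokines. A gene's absence from a term that includes others is therefore no statement about the terms beneath it.

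**Figure D2:**
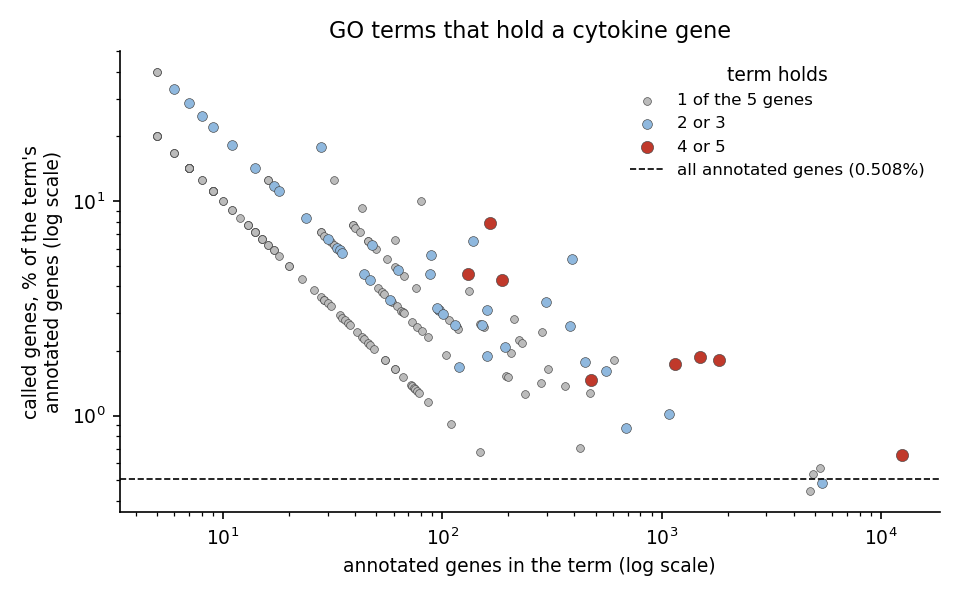
Annotated genes in each term (horizontal axis, log scale) against the share of them that was called, in percent (vertical axis, log scale), for the 197 GO terms that hold a cytokine gene. The dashed line marks the 0.508% of all annotated genes. The diagonal rows of points are terms with equal numbers of called genes, and terms with 4 or 5 of the cytokines lie at 131 annotated genes or more.

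The IL-1 ligands had the most terms in common. IL1A and IL1B shared 28 terms, which is 54.9% of the terms of IL1A and 29.2% of those of IL1B. The Jaccard index, the number of shared terms divided by the number of terms of either gene, was 0.235 for the pair. Of the terms that held IL1A and IL1B and none of the other 3 cytokines, 15 in all, 10 held no other called gene. The smallest was positive regulation of immature T cell proliferation in thymus, with 2 called genes of 6. Regulation of nitric-oxide synthase activity held 2 of 9 genes, positive regulation of prostaglandin secretion 2 of 11 and interleukin-1 receptor binding 2 of 14. Further terms with this pair alone concerned cell division (2 of 47), mitotic nuclear division (2 of 30), interleukin-2 production (2 of 34) and the extrinsic apoptotic pathway in absence of ligand (2 of 33). Positive regulation of angiogenesis held the pair among 9 called genes of 138.

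IL1A had 22 terms with none of the other 4 cytokines, and in 10 of these it was the only called gene. Its smallest terms had 5 annotated genes each, the fewest of any listed term. They were connective tissue replacement in wound healing, which held IL1A alone, positive regulation of neutrophil migration, which also held IL1A alone, and response to L-ascorbic acid, which it shared with SOD2, the mitochondrial superoxide dismutase. Response to ozone held IL1A as 1 of 6 genes. IL-1 alpha is known to act as a nuclear protein as well as a secreted one, and IL1A was the only one of the 5 genes listed under nucleus, with 30 called genes of 5275. It was also the only one listed under cell surface (11 of 609) and plasma membrane (21 of 4739).

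IL1B had 54 terms with none of the other 4 cytokines, 28 of them with no other called gene. Positive regulation of fever generation held 2 called genes of 5, IL1B and PTGS2, the inducible cyclooxygenase that makes prostaglandins. PTGS2 also stood beside IL1B in positive regulation of prostaglandin biosynthetic process, with 2 of 7 genes. Cellular response to interleukin-17 held IL1B and NFKBIZ, a nuclear partner of NF-kappaB, as 2 of 6 genes. Negative regulation of glucose transmembrane transport and negative regulation of lipid metabolic process each held IL1B as 1 of 5 genes. Regulation of establishment of endothelial barrier, a process of the cell type studied, held IL1B as the only called gene of 10. Neutrophil chemotaxis held 8 called genes of 80, in which IL1B stood with 7 chemokines, CCL2, CCL3, CCL20, CXCL1, CXCL2, CXCL3 and CXCL8.

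Among the 5 cytokines, IL6 was most often listed without company. In 32 of its 84 terms (38.1%) it was the only called gene, against 29.2% of the terms of IL1B, 25% of those of CSF3, 21.1% of those of IL11 and 19.6% of those of IL1A. Over the other 90 called genes, 763 of 2090 entries of a gene in a term (36.5%) were of this kind, so that the share of IL6 lay near that background and those of the other 4 below it. Its smallest term was negative regulation of interleukin-1-mediated signaling pathway, with IL6 as 1 of 5 genes. T follicular helper cell differentiation and positive regulation of receptor signaling pathway via STAT each held IL6 as 1 of 6 genes, and interleukin-6 receptor binding held it as 1 of 7. Acute-phase response, the liver's output of plasma proteins that IL-6 is best known for, held IL6 as 1 of 37. Among terms of the vessel wall, positive regulation of leukocyte adhesion to vascular endothelial cell held IL6 as 1 of 11 genes and positive regulation of platelet aggregation held it as 1 of 12. Maintenance of blood-brain barrier held IL6 and PTGS2 as 2 of 31.

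IL1B and IL6 shared 25 terms with a Jaccard index of 0.161, the highest of IL6 with any of the other 4 cytokines. In 11 terms they were the only cytokines of the 5, and in 7 of these they were the only called genes. Vascular endothelial growth factor (VEGF) production held both as 2 of 7 genes. Positive regulation of neuroinflammatory response held both as 2 of 8, and positive regulation of glial cell proliferation as 2 of 17. IL1A joined them in 12 terms, 5 of which held neither IL11 nor CSF3. The smallest of these 5 was positive regulation of VEGF production. It held 5 called genes of 28, or 17.9%, with C3 and PTGS2 as the other called genes. Positive regulation of interleukin-6 production held IL1A, IL1B and IL6 itself as its only called genes, 3 of 97. Inflammatory response held the same 3 cytokines among 21 called genes of 390.

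IL11 was absent from inflammatory response, immune response and cellular response to lipopolysaccharide. Its terms with none of the other 4 cytokines numbered 8, and it was the only called gene in 4. Regulation of complement-dependent cytotoxicity held IL11 as 1 of 7 genes and megakaryocyte differentiation, the step to platelets for which IL-11 has been used as a drug, held it as 1 of 10. Negative regulation of hormone secretion held IL11 and LIF as 2 of 9. Negative regulation of endothelial cell apoptotic process held 4 called genes of 32, or 12.5%, and IL11 was the only one of the 5 cytokines in it. Its other called genes were ANGPTL4, the adhesion molecule ICAM1 and TNFAIP3, an inhibitor of NF-kappaB. Fat cell differentiation held IL11, EGR2 and NR4A1 as 3 of 76.

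CSF3 had 12 terms with none of the other 4 cytokines, 6 of them with no other called gene. Granulocyte differentiation, the process G-CSF is named for, held CSF3 as 1 of 14 genes. Positive regulation of actin cytoskeleton reorganization held it as 1 of 20, cellular response to cytokine stimulus as 1 of 29 and positive regulation of actin filament polymerization as 1 of 47. Endocytic vesicle lumen held CSF3 as 1 of 18. Immune response held CSF3 with IL1A and IL1B among 10 called genes of 297, and IL6 was absent from that term.

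IL6, IL11 and CSF3 were held together in 3 terms that held no IL-1 ligand, and LIF was called in each of them. Positive regulation of peptidyl-tyrosine phosphorylation held these 4 genes and no other called gene, 4 of 88. Positive regulation of peptidyl-serine phosphorylation held them with PTGS2, 5 of 89. Growth factor activity held them with the chemokine CXCL1, 5 of 160. Positive regulation of MAPK cascade held IL6, IL11, LIF and WWC1, 4 of 151. The pair with a Jaccard index nearest to that of the IL-1 ligands was IL11 and CSF3, with 8 shared terms and an index of 0.229. Every term that these shared also held IL6.

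LIF was the called gene most like IL6, IL11 and CSF3 when the 5 cytokines were left aside. It shared 11 terms with IL11 (Jaccard index 0.220), 9 with CSF3 (0.158) and 13 with IL6 (0.115). IL32 and CXCL1 came next for IL11, at 0.167 and 0.139. For CSF3, CXCL3 and IL32 came next, both at 0.100, and for IL6, PTGS2 and CXCL1, at 0.074 and 0.071. The called gene most like IL1A was C3, the central complement component, at 0.120, before LIF at 0.107 and CXCL8 at 0.103. For IL1B it was the chemokine CCL3, at 0.093, before LIF at 0.087 and CCL2 at 0.086. Other genes took the first place of IL1A in each of the 3 alternative measures, that of IL1B in 2 of them and that of IL6 in 1, whereas LIF kept it for IL11 and CSF3 in all 3.

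Term names were grouped into 9 overlapping themes after the terms had been seen, no test was made of them, and nothing particular to a theme is read from the shares. At least 1 of the 5 cytokines was held by 16.2% of all listed terms. The share was 63.9% for kinase, STAT and NF-kappaB signalling (23 of 36 terms), where IL1B was in 14. It was 60% for the production of cytokines and growth factors (18 of 30), with IL6 in 12, IL1B in 9, IL1A in 5, and IL11 and CSF3 in 0. For vessels, endothelium and platelets it was 34.4% (11 of 32), with IL6 in 7, IL1B in 5, IL1A in 2, IL11 in 1 and CSF3 in 0. For lymphocytes and antibodies it was 30.3% (10 of 33), and for granulocytes, monocytes and chemotaxis 28.9% (11 of 38). Lipid, glucose and prostaglandin metabolism had 26% (13 of 50), with IL1B in 9, and cell proliferation and division had 25.6% (10 of 39). Cell death had 22.9% (8 of 35). The nervous system had 16.4% (11 of 67), a share near that of all listed terms.

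**Figure D3:**
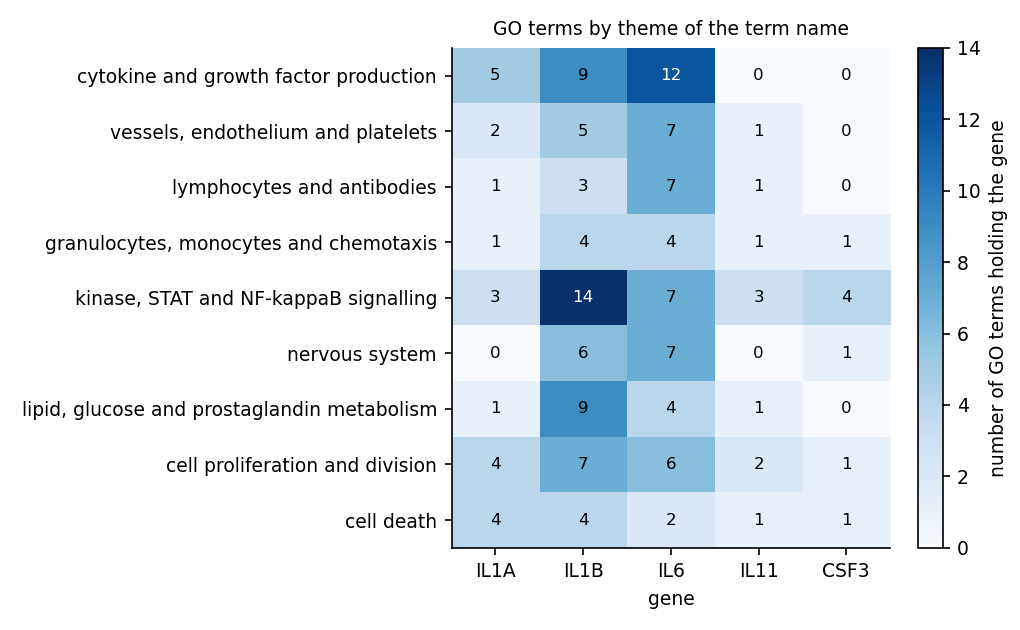
Number of GO terms that hold each cytokine gene (horizontal axis), by theme of the term's name (vertical axis). A term can fall under more than one theme. IL1B has its highest count, 14, in signalling and IL6 has its highest, 12, in the production of cytokines and growth factors.

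The relatives and receptors of the 5 cytokines were looked up among the 95 called genes. Of the 11 IL-1 family ligands, IL1A and IL1B were called. Of the 11 ligands of the IL-6 family, IL6, IL11 and LIF were called. Of 14 colony-stimulating factors and their receptors, CSF3 was called. None of 19 IL-1 receptors and signalling genes, 11 genes of the inflammasome and IL-1 processing, 8 receptors of the IL-6 family or 22 genes of the JAK, STAT and SOCS families was called. Leaving out the 5 cytokines, 1 of 91 genes on these lists was called (1.10%), LIF, and at 0.508% of all annotated genes a count of 0 or 1 is near the background. Of 8 genes of LPS sensing 0 were called, and of 13 core NF-kappaB genes NFKB2, RELB and NFKBIZ were called.

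The comparison of siENO1-L-L with NC-L-L asks which transcripts differ when ENO1 is silenced under the same stimulation. It uses the same NC-L-L samples as the comparison above, so the comparisons are not independent. Its table lists 31 KEGG pathways and 14 called genes, which are 0.176% of the 7958 genes with a KEGG annotation. Of the 5 cytokines 0 were among the 14, and 0 of the 31 pathways held one. Side by side, IL1A, IL1B, IL6, IL11 and CSF3 were each called for NC-L-L against NC and each not listed when siENO1-L-L was compared with NC-L-L. A gene missing from the list may still have differed by less than the authors' thresholds, and no interval for its fold change can be given. With 0.176% of annotated genes called, a count of 0 among 5 genes is no result about the cytokines.

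Several of the listed pathways are ones in which the cytokines are known to act, and each was listed through another gene. Cytokine-cytokine receptor interaction, the KEGG pathway of cytokines and their receptors, held 1 called gene of 293, IL13RA2, a receptor chain that binds IL-13. IL13RA2 was also the called gene of the JAK-STAT signaling pathway, 1 of 166. TRAF1, an adaptor of TNF receptors, was the called gene of the NF-kappa B signaling pathway (1 of 102) and of the TNF signaling pathway (1 of 114). The NOD-like receptor signaling pathway, which leads to the cleavage of IL-1 beta, was listed through TXNIP, 1 of 185. A listed pathway name therefore did not mean that any of the 5 cytokines was called.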

How the data were processed

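RNA of 12 EC samples, labelled EA.HY926, was sequenced by the authors, in 4 groups of 3 named from the sample labels. Aligner, build and counting are not given in the sources used here. The authors called genes with thresholds on a false discovery rate, a fold change and a p-value. The limit that the paper states for the false discovery rate is loose. A large share of the called genes could therefore be false calls. They deposited 2 enrichment tables, which give numbers of genes per term or pathway and symbols of the called genes. The paper states that raw sequencing data were deposited too, and these were not used here. The deposited p-value, q-value and enrichment score of each term hold the authors' own test results and were not used. The siENO1 samples enter neither table and were not analysed here.

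The symbol column was split on semicolons in Python 3.11.15, and terms that hold IL1A, IL1B, IL6, IL11 or CSF3 were counted. Likeness between genes was the Jaccard index of their GO terms. No test was run, since the genes were chosen by the same calls. The code was tested on simulated data with known answers. The members and lists were chosen with earlier results of these data known.

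Genes named are the 5 cytokines, the 3 called genes most like each, called genes on the lists, and the called genes of described terms. Terms described hold at least 4 of the cytokines, are the smallest of a combination or among the 5 smallest of a cytokine, or hold no other called gene. Inflammatory and immune response and response to lipopolysaccharide were chosen after their values were seen. So were the prostaglandin biosynthetic process, the remaining phosphorylation, growth factor, angiogenesis, chemotaxis, barrier, apoptosis and location terms, and the KEGG genes. Gene positions are those of GENCODE v29 and promoters those of RefSeq GRCh38.p14, not the authors'. Figures were drawn with matplotlib 3.10.9.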

Additional observations from a re-analysis of the deposited data

How the results depend on the processing

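No paired analysis was possible because neither table has a value for any single sample, and replicates could not be left out for the same reason. What depth limits is unknown.

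The number of GO terms with at least 1 of the 5 cytokines, 197, was 176 with biological processes only, 169 with terms of at most 200 annotated genes and 188 with terms of at most 1000, the last chosen after seeing the data. It fell to 70 when a term needed 3 or more called genes and to 97 when terms with the same called genes were counted as 1. The number with at least 2 of the cytokines, 47, was 30 when a term needed 3 or more called genes, 31 without IL1A and 20 without IL1B. Without IL6, IL11 or CSF3, and under the other alternatives, it lay from 32 to 47. These falls follow from the construction of the alternatives, which count fewer terms or fewer genes. The number of terms with 1 cytokine and no other called gene, 80, was 76 with biological processes only and 80 with at most 200 annotated genes. No KEGG pathway held a cytokine when synonyms and letter case were allowed for. Motif matches numbered 6 pairs of motif and gene on both strands, on the strand of the gene and in the 250 bases before the start.

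Likeness was recomputed for 15 pairs of genes. It moved beyond the 95% Wilson interval in 3 pairs with biological processes only and in 7 with terms of at most 200 annotated genes, each time to a lower value. That interval treats GO terms as independent, although terms overlap in their genes. The overlap coefficient divides by the smaller number of terms and cannot lie below the Jaccard index, so its size says nothing about stability. The called gene most like a cytokine was the same in 9 of 15 combinations of cytokine and alternative. For IL11 and CSF3 it was LIF in each, for IL1B it was CCL3 in 1 of 3, for IL6 the overlap coefficient put ESM1 and ODF3B first, and for IL1A a different gene came first in each. Protein identity was not computed. No fold change, direction or level of the cytokines can be given from the gene numbers and symbols used here.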
